A study of Mus musculus with 30 samples.

Results

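Gene expression in untreated dendritic cells carrying a knockout of Rubcn (KO) was compared with that in untreated wild-type (WT) dendritic cells, over all genes. The libraries were those whose titles give the genotype and no treatment: 3 KO and 3 WT libraries, 6 of the 30 in the series. The cells were grown from mouse bone marrow in FLT3L, a cytokine that drives dendritic cell development, at 200 ng/ml until day 6 or 7. The other 24 libraries come from the same kind of culture of both genotypes to which the protein ovalbumin (OVA) or dying cells of the human T-cell leukaemia line Jurkat were added for 30 min or 4 h. The labels give both untreated groups the same culture and extraction, and set them apart by genotype alone. The sources used here do not give the knockout allele, the strain or the number of mice. Nor do they give whether the 3 libraries of a group came from separate mice or cultures, and the p-values measure the spread between libraries, which may be technical.

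Rubcn encodes Rubicon, which binds the class III phosphatidylinositol 3-kinase complex. Rubicon restrains canonical autophagy and is needed for LC3-associated phagocytosis, a non-canonical use of the autophagy machinery in which LC3 is attached to the membrane of a phagosome. Loss of that pathway in phagocytes has been studied for its effect on the handling of dead cells and on inflammatory and interferon signals. FLT3L cultures of bone marrow hold plasmacytoid dendritic cells, which can make large amounts of type I interferon, together with both types of conventional dendritic cell. In such a mixture a bulk library cannot tell fewer cells of a type from less RNA per cell.

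Depth was even: total counts ran from 42.66 M to 46.89 M in WT and from 44.97 M to 47.01 M in KO. The first principal component of the 6 libraries held 41.75% of the variance and put the genotypes apart, at 13.58 to 20.59 in KO and -17.94 to -16.16 in WT. The second, with 18.78%, set the library numbered 1 of each genotype (15.11 in KO, 17.23 in WT) apart from the other libraries (-9.96 to -5.55). Without both of these libraries, 24 of 119 named genes lost their call. Genes of the Y chromosome were expressed in all 6 libraries (Ddx3y at 72.1 to 94.2 CPM, read counts scaled to library size), Xist lay at 0.0401 to 0.237 CPM, and 0 of 5 sex-linked genes tested passed (0 at an unadjusted p under 0.05, edgeR, and 0 by DESeq2). Flt3, the receptor of the growth factor, stood at 547.2 to 563.8 CPM in KO and 549.4 to 582.0 CPM in WT. Irf8, a factor that dendritic cells need, stood at 2080 to 2148 CPM in KO and 2164 to 2284 CPM in WT.

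The targeted gene was examined first. Rubcn (Entrez 100502698, mm10 chr16:32821702-32868366, minus strand) was at 70.4, 72.2 and 75.8 CPM in the 3 KO libraries and at 95.6, 96.6 and 104.6 CPM in the 3 WT libraries. Each KO library was below every WT library, and the KO mean was 73.6% of the WT mean (log2 fold change -0.44, SE 0.0472, edgeR adjusted p 1.69e-07). A count over the whole gene does not show which exons the remaining reads cover, so it checks the labels only in part. Of 36 genes of the class III kinase and LC3 conjugation machinery, all tested, 1 was called lower, Rubcn itself, and 1 higher. The latter was Map1lc3a, an LC3 gene (log2 0.33, from 9.40 to 10.5 CPM in WT to 12.2 to 12.8 CPM in KO). DESeq2 called 2 higher. Over all genes 3.97% were called lower and 6% higher, and these counts are too small to read against those shares. Beclin (Becn1), Uvrag, Atg5, Atg7 and Atg16l1 had log2 values between -0.08 and 0.05. Of 7 genes of the NADPH oxidase that produces reactive oxygen in phagosomes, 0 passed (2 at an unadjusted p under 0.05, edgeR, and 0 by DESeq2). Cybb, its catalytic subunit, stood at 631.5 to 737.8 CPM in KO and 702.0 to 779.9 CPM in WT.

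At an edgeR adjusted p under 0.05, 1477 of 14808 genes tested differed between the genotypes, or 9.97%. Of these, 889 were higher in KO (6% of genes tested) and 588 lower (3.97%). Most differences were small: 69.26% of the genes called differed by less than 1.5-fold, and 143 (0.966%) by at least 2-fold, 84 of them higher and 59 lower. The median size was 0.47 on the log2 scale among the rises and 0.30 among the falls, and the middle 50% of all genes tested lay between -0.08 and 0.09. The 2-fold rises and falls differed in level. Of the 84 rises, 73 were under 5 CPM in KO, and with at least 50 CPM in the higher group only 2 genes rose and 8 fell by that much. Those 8 were Ifi27l2a, Oas2, Oas3, Oasl2, Ly6c2, Ifi209, Ly6a and Irf7, and the 2 were Itgae and Mmp12. Of the 1477 genes called, 1425 had no overlap in CPM between the KO and WT libraries. The largest rises and falls named below were picked for that, so non-overlap in a called gene adds no support to its call.

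The number of calls depended on single libraries. It was 898 without KO library 1, 984 without WT library 2 and 646 without both libraries numbered 1, against 1053 to 1357 without any 1 of the others. Of 1477 genes called, 60.19% were higher in KO, a share that was 52.76% with DESeq2's size factors and 66.89% with total counts in the same test, and 50.96% with DESeq2's own test.

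**Figure D1:**
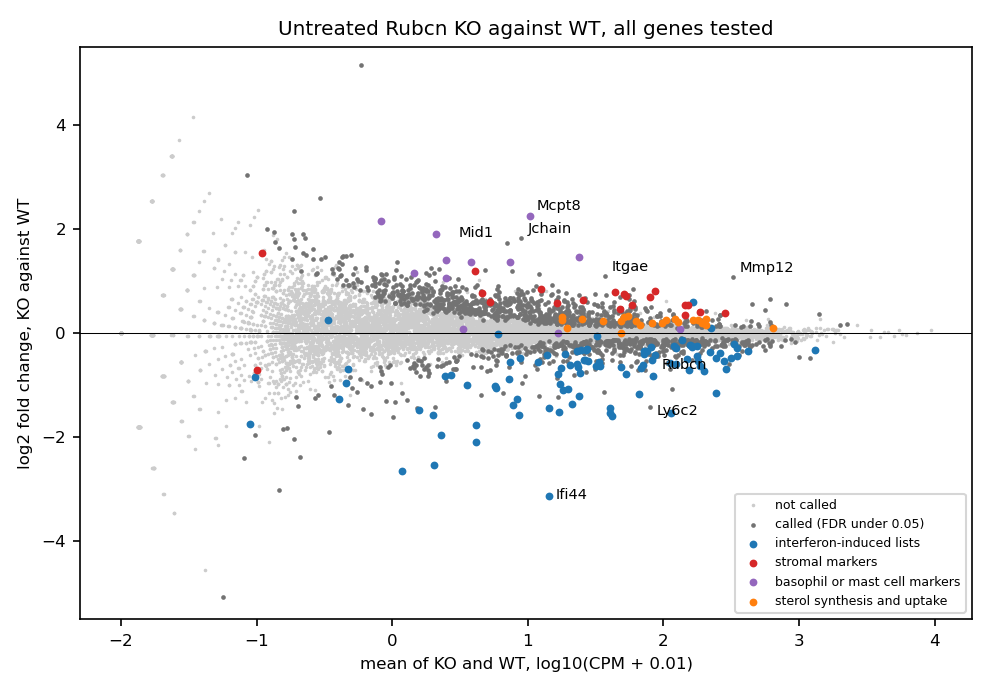
Log2 fold change of KO against WT in untreated cells (vertical axis) against the mean level of the 6 libraries (horizontal axis, log10 of CPM with a small offset), 1 point per gene tested. Dark grey points are the 1477 genes called, and colours mark members of 4 gene groups. Interferon-induced genes (blue) lie mostly below 0 and stromal markers (red) mostly above it. Basophil or mast cell markers (purple) and sterol genes (orange) all lie at or above 0.

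Interferon-induced genes were lower in KO as a group. Interferons bind receptors that signal through JAK kinases and STAT factors. A complex that holds STAT2 and IRF9 then binds an interferon-stimulated response element in its target promoters. Targets were followed in 3 lists, of antiviral effectors, of the Ifi200 cluster of PYHIN genes and of guanylate-binding proteins and immunity-related GTPases. Here and in the other lists, members were chosen with earlier results of these data known. Counts set against the share of all genes are thus descriptions without a test. Of their 98 members tested, 81 fell, 1 rose and 16 did not pass, against 3.97% of all genes that fell. Their median was -0.62, where that of all genes tested was -0.01. In 91 of the 98 all KO libraries were below all WT libraries. Non-overlap in either direction was seen in 24.8% of all genes tested. Of the 59 genes that fell by at least 2-fold, 24 belong to these lists. The number called lower was 68 to 77 without any 1 library, 61 without both libraries numbered 1, and 89 in a fit of the 6 untreated libraries alone, each with a median between -0.65 and -0.59.

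Promoters of the genes that fell most are shown because some hold the letters to which the STAT and IRF9 complex is known to bind. The 12 largest falls at 5 CPM or more were searched for the core of that element, 2 copies of GAAA with 2 bases between them, on both strands, from 250 bases before to 50 after the start site in RefSeq (GRCm38.p6). Of the 9 with a promoter in the table, Oas1g, Ifit3, Oas3 and Isg15 held it, and Ifi44, Oasl1, Oasl2, Ly6c2 and Ifit2 did not. Ifi27l2a, Rtp4 and Oas2 had no entry. Each line gives 120 bases upstream of the start, 5′ to 3′ on the gene's strand, with the matches in capitals. The Oas1g line runs from 120 to 1 bases before the start, Ifit3 from 177 to 58, Oas3 from 130 to 11 and Isg15 from 121 to 2. The stretches are chr5:120887614-120887733, minus strand (Oas1g), chr19:34583352-34583471, plus strand (Ifit3), chr5:120777670-120777789, minus strand (Oas3) and chr4:156200820-156200939, minus strand (Isg15).
Oas1g: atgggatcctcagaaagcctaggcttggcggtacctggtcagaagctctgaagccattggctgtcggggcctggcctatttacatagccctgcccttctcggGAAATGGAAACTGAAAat
Ifit3: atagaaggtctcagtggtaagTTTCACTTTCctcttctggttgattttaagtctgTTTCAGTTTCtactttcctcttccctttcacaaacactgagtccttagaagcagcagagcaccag
Oas3: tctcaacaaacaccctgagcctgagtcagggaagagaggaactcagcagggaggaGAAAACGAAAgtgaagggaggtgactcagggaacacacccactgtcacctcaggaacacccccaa
Isg15: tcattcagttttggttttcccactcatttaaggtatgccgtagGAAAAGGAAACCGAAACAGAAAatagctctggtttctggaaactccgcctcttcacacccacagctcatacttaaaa

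In Ifit3 the capitals show the core of the opposite strand, and so read as TTTC, and in Oas1g and Isg15 overlapping matches run together. The core was in the promoters of 70 of the 465 called-lower genes with an entry (15.1%). It was in 2.91% of those called higher, 3.51% of those not called and 3.94% of all tested, and in 3.44% of all single promoters of that length. Among 57 antiviral effectors with an entry 25 held it, as did 8 of 9 PYHIN genes and 10 of 11 guanylate-binding proteins and GTPases. A second motif, the gamma-activated sequence TTCNNNGAA, was in 9.89% of the genes called lower, 7.7% of those called higher and 8.33% of all tested. These matches describe letters in a window and are not measurements of binding.

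The antiviral effectors held the largest falls. Ifi44, an interferon-induced protein with a GTPase-like domain, was at 3.003, 2.674 and 3.106 CPM in KO and 29.6, 21.7 and 25.8 CPM in WT (log2 -3.13, SE 0.234, edgeR adjusted p 2.16e-10). No KO library came near the lowest WT library. The 2′,5′-oligoadenylate synthetases, which sense double-stranded RNA, fell together, with log2 values of -2.09 for Oas1g, -1.60 for Oasl2, -1.54 for Oas3 and -1.45 for Oas2. Oas3 was at 22.8, 21.2 and 18.3 CPM in KO against 61.6, 54.0 and 65.6 CPM in WT. Oasl1 was called (log2 -1.77, adjusted p 0.0337), but not without any 1 of the 6 libraries (adjusted p up to 0.108). Reads of Oas1g and the other Oas1 genes may be split between near-identical copies, so their single values are uncertain.

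Isg15, a ubiquitin-like modifier, was at 8.59, 7.71 and 6.99 CPM in KO and 21.7, 19.5 and 21.7 CPM in WT (log2 -1.43, SE 0.339, edgeR adjusted p 0.00537). Ifit3, which binds viral RNA with its IFIT partners, was at 5.19, 4.33 and 3.43 CPM in KO and 13.2, 12.8 and 12.7 CPM in WT (log2 -1.58, adjusted p 0.00779). In both genes the groups lay well apart. Ifit2 fell by 1.36, but its call was lost without KO library 2, KO library 3 or WT library 1 (adjusted p 0.0603 to 0.0782). Ifit1 did not pass (-1.27, adjusted p 0.0758), although its KO libraries, at 3.67 to 6.32 CPM, were all below its WT libraries, at 11.02 to 12.4 CPM. The fit shares its estimate of spread with the 24 treated libraries.

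Ifi27l2a, a mitochondrial interferon-induced protein, was at 53.4, 65.9 and 55.7 CPM in KO and 172.0, 162.8 and 173.8 CPM in WT (log2 -1.54, SE 0.0953, edgeR adjusted p 5.37e-12). Rtp4 (-1.52), Lgals3bp (-0.74) and Ly6e (-0.32) also fell. Ly6a, the surface antigen Sca-1, was at 149.6, 157.0 and 149.1 CPM in KO and 343.1, 335.6 and 340.8 CPM in WT (log2 -1.16, SE 0.0773). Within each genotype the libraries of these genes differed far less than the genotypes did. Ifitm1, a membrane protein that restricts viral entry, was the only member to rise (log2 0.59), at 172.2 to 218.0 CPM in KO and 119.7 to 140.6 CPM in WT, while Ifitm3 fell by 0.48. Summed over the 71 effectors, KO libraries held 6528 to 6661 CPM and WT libraries 8793 to 9187 CPM, a ratio of 0.734.

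The PYHIN genes, several of which encode sensors of cytosolic DNA, fell in 8 of 10 cases with a median of -0.78. Ifi209 was at 41.0, 40.2 and 39.7 CPM in KO and 97.8, 85.5 and 89.3 CPM in WT (log2 -1.17, SE 0.138, edgeR adjusted p 8.90e-07). Ifi213 (-2.53) and Ifi208 (-2.64) fell the most, from WT means of 3.46 and 2.03 CPM. Ifi203 (-0.45) and Ifi207 (-0.70) fell too. Ifi205 and Ifi214 did not pass, at -0.25 and -0.85. Of 18 guanylate-binding proteins and GTPases, which attack vacuoles of intracellular microbes, 11 fell and 0 rose, with a median of -0.59. Tgtp2 was at 12.5, 11.7 and 10.7 CPM in KO and 24.2, 22.6 and 22.3 CPM in WT (log2 -0.98, adjusted p 5.74e-06). Irgm1 (-0.57), Ifi47 (-0.67) and Gbp6 (-1.97) were among the other falls. All of these genes have close copies among which reads may be split.

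**Figure D2:**
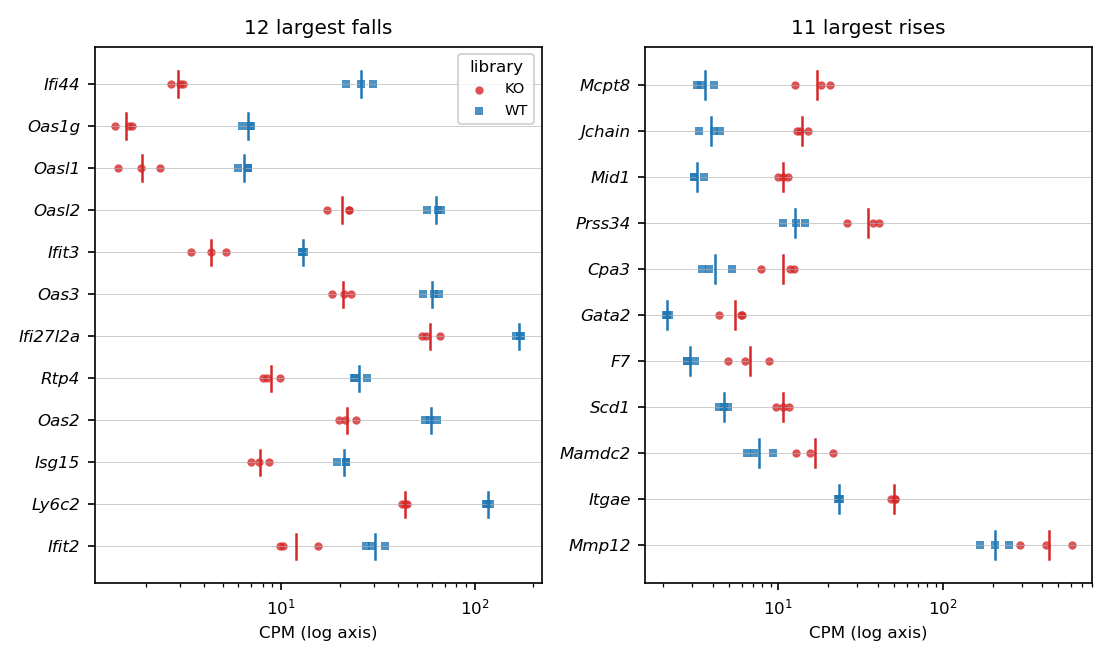
CPM in each untreated library (points, log axis) for the 12 largest falls (left) and the 11 largest rises (right) among genes called that reach 5 CPM and whose groups do not overlap, with group means as vertical ticks. KO libraries are red circles and WT libraries blue squares. Of the falls, 11 are interferon-induced list members and Ly6c2 is a monocyte marker, while the rises hold 4 basophil or mast cell markers (Mcpt8, Prss34, Cpa3 and Gata2).

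Upstream of these targets the picture was mixed. Interferon ligand genes were hardly detected: 18 of 20 had no count in any untreated library, and the list summed to 9 counts over the 3 KO and 15 over the 3 WT libraries. A count of 0 allows up to 3 counts, or 0.0206 CPM over the KO group and 0.0214 CPM over the WT group, so a difference in ligand RNA was not detectable at this depth, and these floors cover counting error only. The receptor genes Ifnar1 and Ifnar2 did not pass, both at -0.07, nor did Jak1 (0.04) or Tyk2 (-0.08). Among 23 receptor and signalling genes, 7 fell and 2 rose, where 3.97% of all genes fell and 6% rose. The number of rises is too small to read against that share.

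Irf7, the factor that amplifies type I interferon production, was at 76.3, 73.9 and 72.6 CPM in KO and 157.6, 147.8 and 166.5 CPM in WT (log2 -1.08, SE 0.152, edgeR adjusted p 1.29e-05). Irf7 is itself interferon-induced, and its groups did not overlap. Irf9 (-0.35), Stat2 (-0.23), Irf1 (-0.24) and Usp18 (-1.14), a brake on the receptor, also fell. Ptpn6 (-0.13) was called, but not without any 1 of the libraries other than WT library 1. The 2 rises were Socs3, a feedback inhibitor of STAT3 signalling (log2 0.60), and Ifngr1 (0.12), and 1 rise was called without any 1 library other than WT library 2.

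Of 24 genes of nucleic acid sensing 11 fell and 0 rose, where 3.97% of all genes fell. Dhx58 (LGP2), a partner of the RNA sensors, fell (-0.70), as did the sensors Ddx58 (RIG-I, -0.68) and Ifih1 (MDA5, -0.54). Zbp1, a sensor of Z-form nucleic acid, was at 7.47, 7.38 and 6.91 CPM in KO and 16.4, 15.8 and 18.1 CPM in WT (log2 -1.21, edgeR adjusted p 0.000159). The DNA sensor cGAS (Mb21d1, -0.36) and the nuclease Trex1 (-0.41), which removes cytosolic DNA, fell. Adaptors Mavs (-0.02), Tmem173 (STING, 0.01) and Myd88 (-0.05) did not pass. The number of falls was 7 without KO library 2.

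Genes of antigen presentation on MHC class I, by which CD8 T cells are shown antigen, were lower at several steps. Of 28 genes of the class I pathway 12 fell and 0 rose, with a median of -0.16, where 3.97% of all genes fell. H2-K1, a class I heavy chain, was at 797.8, 867.2 and 847.1 CPM in KO and 1141, 1163 and 1169 CPM in WT (log2 -0.47, SE 0.0370, edgeR adjusted p 5.17e-10). B2m, the light chain, was at 1054, 991.0 and 986.3 CPM in KO and 1478, 1382 and 1360 CPM in WT (log2 -0.48, adjusted p 1.73e-07). No KO library reached a WT library in either gene. H2-D1 (-0.34) and the non-classical H2-Q4 (-0.71) fell, though reads of class I genes may be split between copies. Nlrc5, the transactivator of class I genes, fell (-0.69), as did the peptide transporter Tap1 (-0.25). Chaperones Calr, Canx and Pdia3 had values of 0.02 to 0.04, and Sec22b, a SNARE used by phagosomes, had KO libraries at 47.3 to 49.0 CPM and WT libraries at 47.5 to 49.2 CPM.

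Class II genes did not share the fall. Of 18, 2 rose (H2-DMb2 by 0.21 and the protease Lgmn by 0.17) and 1 fell (H2-Eb2, -0.53). Over all genes 6% rose and 3.97% fell. Cd74, the invariant chain, was at 8972, 10030 and 10080 CPM in KO and 8369, 9292 and 10110 CPM in WT, and the groups overlapped. The call of Lgmn was lost without KO library 1, WT library 2 or WT library 3.

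Maturation genes, which rise when dendritic cells are activated, fell in 13 of 30 cases and rose in 0, with a median of -0.24, where 3.97% of all genes fell. Ccr7, the receptor that guides mature cells to lymph nodes, was at 108.0, 101.6 and 101.8 CPM in KO and 136.8, 143.4 and 144.0 CPM in WT (log2 -0.45, SE 0.0851, edgeR adjusted p 0.000665). Cacnb3 (-0.53), the chemokine Ccl5 (-0.42) and Samsn1 (-0.30) fell, and none of these had overlapping groups. Cd86, Cd83 and Cd274, which bind receptors on T cells or other immune cells, did not pass, at -0.03 to 0.01, and Cd40 did not pass at -0.45 (adjusted p 0.385). The count of falls was 8 to 9 without any 1 library and 6 without both numbered 1.

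Among 39 cytokine and chemokine genes 7 rose and 3 fell, where 6% of all genes rose and 3.97% fell, and the number of falls is too small to read against that share. Il12a, a subunit of IL-12 and IL-35, was at 18.04, 19.32 and 20.64 CPM in KO and 13.22, 13.97 and 14.57 CPM in WT (log2 0.47, edgeR adjusted p 2.46e-05). Csf1, the macrophage growth factor, rose by 0.41 (43.2 to 55.9 CPM in KO, 34.5 to 40.5 CPM in WT), and the monocyte chemokine Ccl7 by 0.90 from a WT mean of 2.02 CPM. Ccl2, Ccl6, Ltb and Osm also rose, and without KO library 1 the rises numbered 4. The falls were Ccl5, Il15 and Tnfsf10, and without any 1 of the 6 libraries only 1 fall was called. Csf1, Ccl2 and Ccl7 are made by stromal cells as well as by myeloid cells.

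**Figure D3:**
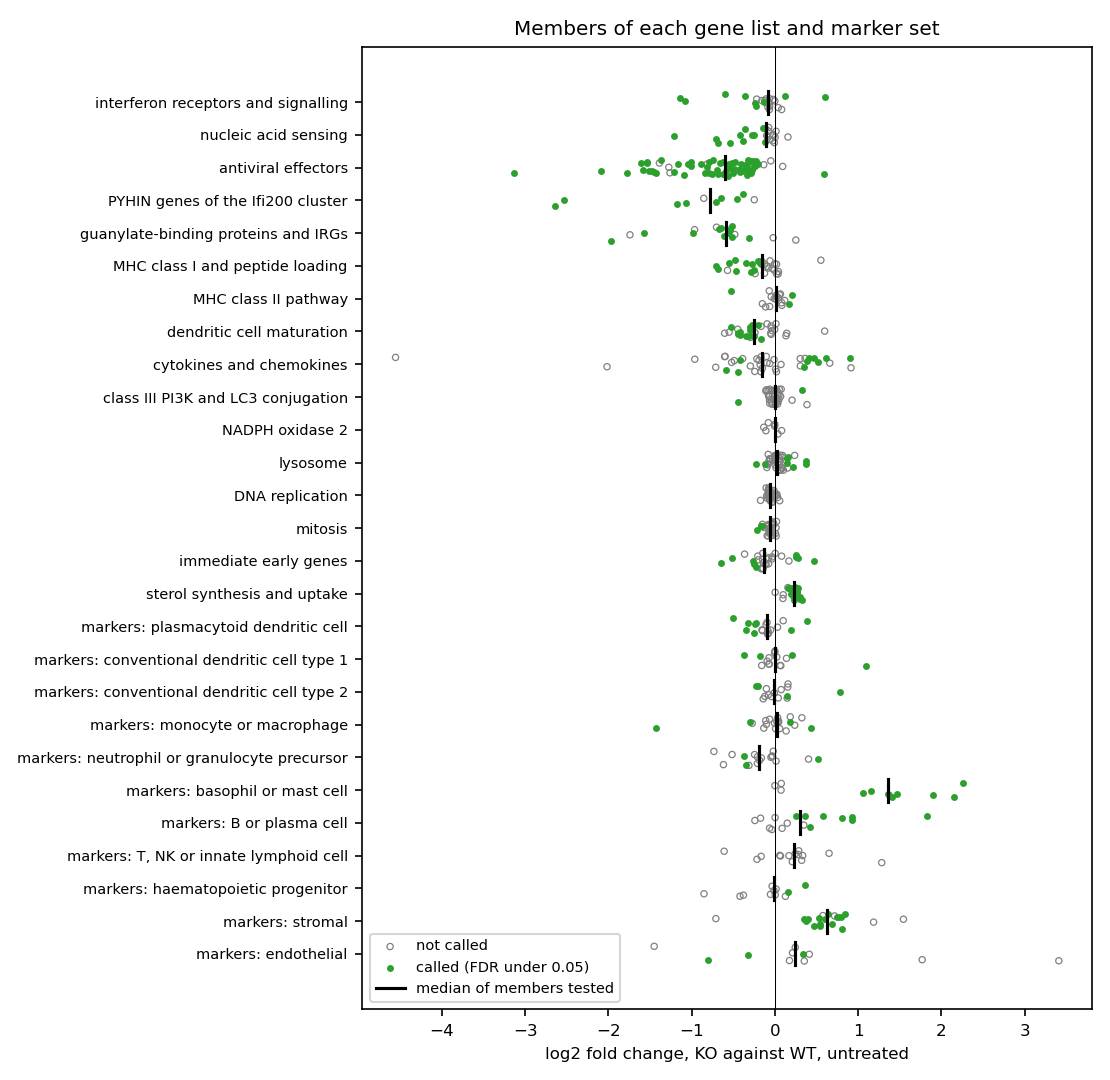
Log2 fold change of KO against WT for every tested member of each gene list and marker set, with called members in green, others as open circles and the median as a bar. Antiviral effectors, PYHIN genes and guanylate-binding proteins lie to the left (medians -0.60, -0.78 and -0.59), and basophil or mast cell and stromal markers to the right (1.36 and 0.62).

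Genes of sterol synthesis and uptake were higher in KO by small amounts. Of 22 genes, 17 rose and 0 fell, against 6% of all genes that rose. All 22 values were positive, with a median of 0.24 and a largest value of 0.33. Lss, which closes the sterol ring, was at 62.2, 61.8 and 58.0 CPM in KO and 48.0, 48.8 and 48.4 CPM in WT (log2 0.33, SE 0.0565, edgeR adjusted p 0.000233). Mvd was at 56.0, 61.0 and 54.1 CPM in KO and 43.5, 46.5 and 48.1 CPM in WT (log2 0.31, adjusted p 6.50e-05). The lowest KO library stood above the highest WT library in both. Sqle, which oxidises squalene, rose by 0.27 and Acat2 by 0.27. Hmgcs1, Idi1, Sc5d, Srebf2 and Pmvk did not pass. The count was 10 without KO library 1 and 9 without both libraries numbered 1.

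Stearoyl-CoA desaturases, which make monounsaturated fatty acids, were also higher. Scd1 was at 11.68, 10.65 and 9.698 CPM in KO and 4.942, 4.334 and 4.694 CPM in WT (log2 1.196, SE 0.110, edgeR adjusted p 1.17e-08). Scd2 was at 758.4, 761.4 and 702.1 CPM in KO and 447.9, 478.0 and 487.0 CPM in WT (log2 0.65, SE 0.0544, adjusted p 1.43e-09). Neither gene's groups overlapped.

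Lysosomal genes changed little. Of 41 tested, 6 rose and 2 fell, with a median of 0.03, where 6% of all genes rose and 3.97% fell. The falls lay near that share. Cd63 rose by 0.37, Lamp1 by 0.14 and the protease Ctsd by 0.37. Ctsd was at 1922, 1452 and 1394 CPM in KO and 1385, 1203 and 1089 CPM in WT, so KO library 1 stood above the rest, and the call was lost without it, as it was without WT library 2 or 3. In the list, 1 rise was called without KO library 1, 1 without both libraries numbered 1 and 2 without WT library 2, and 0 falls were called without KO library 2 or 3 or WT library 1 or 2. DNA replication genes had 0 calls of 29 (3 at an unadjusted p under 0.05, edgeR, and 1 by DESeq2). With the replicate number as a block in the 6 libraries alone, 2 of them were called lower. Mitosis genes had 4 falls of 28 (Cenpf, Kif23, Mki67 and Cenpe), where 3.97% of all genes fell. Of these 4, 1 was called without KO library 1 and 0 without both libraries numbered 1. Of 28 immediate early genes 4 rose and 5 fell, where 6% of all genes rose and 3.97% fell. Fosb was at -0.65 and Egr1 at -0.52. In this list 2 rises were called without KO library 1 or WT library 2, 1 without WT library 3 and 0 without both libraries numbered 1.

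Markers of the cell types in the culture were read next, since their makeup can differ between cultures. Plasmacytoid markers were slightly lower: 6 of 19 fell and 2 rose, where 3.97% of all genes fell and 6% rose. Their sum was 3923 to 4129 CPM in KO against 4349 to 4424 CPM in WT, a ratio of 0.913. Siglech, a surface receptor of these cells, was at 713.0, 647.3 and 654.1 CPM in KO and 808.2, 804.9 and 787.3 CPM in WT (log2 -0.25, SE 0.0570, edgeR adjusted p 0.00356). Cd300c, Upb1, Runx2, Spib and Klk1 also fell, and Cox6a2 and Hepacam2 rose. Tcf4, the factor that specifies the lineage, did not pass, at -0.15. The falls numbered 3 without KO library 2, KO library 3 or WT library 2. The part of this difference in the fall of interferon-induced genes was not tested. The antiviral and plasmacytoid sums had ratios of 0.734 and 0.913, but sums of different genes cannot tell how large that part is.

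The sums of conventional type 1 and type 2 markers overlapped between the genotypes, at ratios of 0.995 and 1.01. Within them single genes moved apart. Itgae (CD103), an integrin of type 1 cells, was at 50.8, 48.3 and 51.4 CPM in KO and 23.1, 23.8 and 23.5 CPM in WT (log2 1.10, SE 0.0878, edgeR adjusted p 6.33e-10). Clec9a, the receptor with which type 1 cells bind dead cells, was at 116.1, 115.4 and 118.5 CPM in KO against a WT mean of 150.9 ± 0.748 CPM (SD, n = 3) (log2 -0.37, edgeR adjusted p 1.69e-05). Neither gene's groups overlapped, and the directions were opposite, while Xcr1 (-0.07), Batf3 (-0.09) and Irf8 (-0.07) did not pass. Among type 2 markers Mgl2 rose by 0.78 (22.4 to 25.7 CPM in KO, 13.1 to 15.3 CPM in WT) and the factors Irf4 (-0.20) and Klf4 (-0.23) fell. Sirpa (0.15) was called, but not without KO library 1, KO library 2 or any 1 WT library.

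Of 20 monocyte or macrophage markers 2 rose and 2 fell, where 6% of all genes rose and 3.97% fell. These numbers are too small to read against those shares. The marker sums overlapped, at 5142 to 6093 CPM in KO and 4916 to 5700 CPM in WT. Ly6c2, which marks inflammatory monocytes and is also carried by plasmacytoid cells, was at 42.0, 44.6 and 43.7 CPM in KO and 119.5, 114.9 and 115.4 CPM in WT (log2 -1.43, SE 0.0812, edgeR adjusted p 9.68e-13). Cx3cr1 fell by 0.30. Mrc1 (0.44) and Lyz2 (0.18) were called higher, but neither without KO library 1, WT library 2 or WT library 3, nor Lyz2 without WT library 1. Neutrophil markers had 1 rise (Ctsg) and 2 falls (Ltf and Chil3) of 18, also too few to read against those shares, and their summed levels overlapped. The rise was lost without any 1 library other than KO library 1, while the falls numbered 0 without that library, 4 without WT library 1, and 4 with DESeq2 or its size factors.

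Markers of basophils and mast cells, which carry the high-affinity IgE receptor and granule proteases, rose the most. Of 12 tested, 9 rose and 0 fell, with a median of 1.36, where 6% of all genes rose. All 9 rose at least 2-fold. Mcpt8, a basophil protease, was at 12.6, 20.5 and 18.1 CPM in KO and 3.41, 4.07 and 3.23 CPM in WT (log2 2.26, SE 0.174, edgeR adjusted p 3.33e-10). Prss34, another protease of these cells, was at 26.1, 40.9 and 37.7 CPM in KO and 10.7, 14.5 and 12.7 CPM in WT (log2 1.46, SE 0.153). Each KO library stood above all WT libraries, as the choice of these genes required, and KO library 1 was the lowest of the 3. The receptor genes Fcer1a and Ms4a2 rose by 2.15 and 1.41, and Cyp11a1, Cpa3, Gata2, Hdc and Cd200r3 by 1.90, 1.37, 1.36, 1.06 and 1.16. Kit, Il3ra and Slc18a2, which other cells also express, did not pass. The mast cell proteases Tpsb2, Tpsab1, Cma1 and Mcpt4 and the cytokines Il4 and Il13 did not pass the filter. Without any 1 library 9 were called. With a filter of 5 CPM in 3 libraries, 5 were called, with fewer members tested. Of 5 eosinophil markers Prg2 alone rose (log2 0.60).

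Early B-lineage and plasma cell markers were also higher, with 8 of 16 called up and 0 down, where 6% of all genes were called up. Jchain, the joining chain of antibodies, also made by plasmacytoid cells, was at 13.57, 15.17 and 12.98 CPM in KO and 4.052, 4.398 and 3.306 CPM in WT (log2 1.83, SE 0.129, edgeR adjusted p 6.96e-11). Rag1, which recombines antigen receptor genes, was at 21.4, 20.5 and 21.1 CPM in KO and 11.82, 12.4 and 11.98 CPM in WT (log2 0.80, SE 0.0629). Dntt, which adds bases at the joints of rearranged genes, was at 68.5, 72.2 and 68.6 CPM in KO and 40.2, 43.8 and 42.8 CPM in WT (log2 0.72, SE 0.0545, adjusted p 2.40e-10). In each gene the 3 libraries of a genotype lay close together and away from the other genotype. Mzb1, Pax5, Rag2, Cd79a, Fcrla and Sdc1 rose by 0.25 to 0.93 (Fcrla with an adjusted p of 0.0872 without both libraries numbered 1), while Ms4a1 (-0.06) and Cd79b (0.00) did not pass. The count was 5 without KO library 1, 3 without both libraries numbered 1 and 4 with the 5 CPM filter. Rag1 and Dntt are also expressed by lymphoid-primed plasmacytoid cells and their precursors.

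Stromal markers rose in 15 of 20 cases and fell in 0, with a median of 0.62, where 6% of all genes rose. Their sum was 1861, 1661 and 1420 CPM in KO and 1075, 1149 and 1221 CPM in WT, a ratio of 1.43. The sums did not overlap, and KO libraries were further from each other than WT libraries. Acta2, smooth muscle actin, was at 134.0, 113.6 and 83.4 CPM in KO and 55.4, 66.9 and 67.3 CPM in WT (log2 0.80, SE 0.122, edgeR adjusted p 4.53e-05). Col6a2 was at 68.0, 63.0 and 62.9 CPM in KO and 38.2, 37.9 and 39.4 CPM in WT (log2 0.75, adjusted p 0.00841, and 0.0927 without both libraries numbered 1). Tagln rose by 0.80, Sparc and Bgn by 0.54 and Col1a1 by 0.40. The count was 9 without KO library 1 and 5 without both libraries numbered 1.

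Other large rises were highest in KO library 1 as well. Mmp12, macrophage elastase, was at 603.1, 421.4 and 291.8 CPM in KO and 250.9, 205.5 and 166.8 CPM in WT (log2 1.08, SE 0.218, edgeR adjusted p 0.00121), with a log2 value of 0.78 without KO library 1. F7, Mamdc2, Mfge8 and Col6a3 rose by 1.21, 1.13, 0.79 and 0.84, each highest in KO library 1. Of 11 endothelial markers Vwf rose and Kdr (-0.81) and Plvap (-0.32) were called lower, but neither fall was called without any 1 library other than WT library 2. T, NK and innate lymphoid markers had 0 calls of 14 and erythroid or megakaryocyte markers 0 of 9 (2 and 1 at an unadjusted p under 0.05, edgeR, and 0 by DESeq2). With the replicate number as a block in the 6 libraries alone, 1 T, NK or innate lymphoid marker was called higher, as was 1 without WT library 1. Progenitor markers had 2 rises of 11, Sox4 by 0.37 and Cebpa by 0.16, and 1 rise was called without KO library 1 or 3 or WT library 1 or 2. Over all genes 6% rose and 3.97% fell, and the counts of these sets are too small to read against those shares. Whether the rises in basophil, B-lineage and stromal markers bear on the other differences was not tested.

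**Figure D4:**
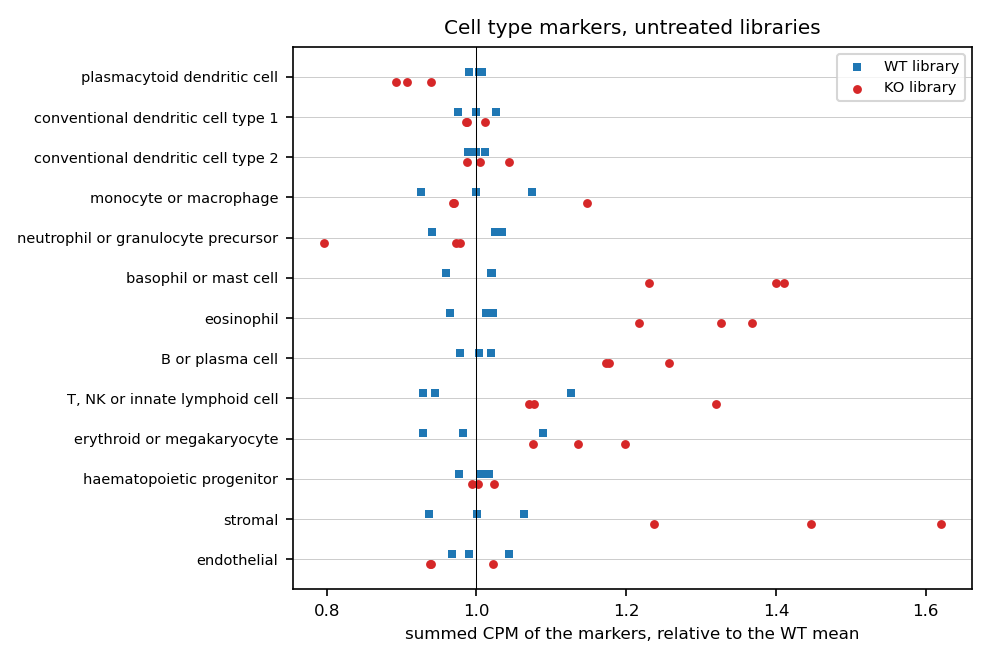
Summed CPM of each marker set in every untreated library, divided by the WT mean of that set, with WT libraries as blue squares and KO libraries as red circles. KO libraries stand above all WT libraries for basophil or mast cell, eosinophil, B or plasma cell and stromal markers, below them for plasmacytoid dendritic cells, and overlap them for both conventional dendritic cell sets.

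Position and strain were checked, because a knockout can carry the DNA of another strain around the targeted gene or elsewhere. Of 31 genes tested within 1 Mb of Rubcn, between gene midpoints, 0 passed (3 at an unadjusted p under 0.05, edgeR), while between gene ends 1 of 33 did, Itgb5. Of 82 within 5 Mb 9 did (11%), close to the 9.97% of all genes. The 4 nearest genes called were Itgb5 (log2 0.41), Bdh1 (0.43), Apod (-1.23) and Mylk (0.75), at 1044 to 2049 kb, and the call of Itgb5 was lost without KO library 1 (adjusted p 0.0578). Apod, a lipid-binding apolipoprotein, was at 9.596, 10.45 and 9.818 CPM in KO against a WT mean of 23.3 ± 1.07 CPM (SD, n = 3; edgeR adjusted p 3.13e-08). By chromosome the share called ran from 7.47% to 13% on the autosomes.

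Of 4 genes at which laboratory strains are known to differ, 2 rose, where 6% of all genes rose. This set is too small to read against that share. Mid1, which spans the boundary of the pseudoautosomal region in some mouse strains, was at 9.99, 10.7 and 11.4 CPM in KO and 3.10, 3.06 and 3.53 CPM in WT (log2 1.72, SE 0.0764, edgeR adjusted p 2.74e-15). Erdr1, a repetitive gene of the same region, rose by 0.43. Nnt, part of which is deleted in C57BL/6J mice, had means of 62.0 CPM in KO and 63.3 CPM in WT. A count over the whole gene does not show whether that part was covered, so it does not give the strain. Ifi202b, expressed or silent depending on strain, was at 0.0647 CPM or less in every library. A difference in strain background between the genotypes cannot be told apart from the knockout in this design.

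The same genotype contrast was then read in the 4 treated conditions. Its values come from other libraries, but all contrasts share 1 model and each gene's estimate of spread, so the calls are not independent. The labels also do not say whether treated and untreated libraries came from the same mice or cultures. A call made again is therefore not shown to be a replication. Of the 889 genes higher in untreated KO, 519 (58.4%) were also called higher after 30 min of OVA, where 6.25% of all genes were called so, and made up 56% of the rises called there. Of the 588 lower, 356 (60.5%) were also called lower, where 6.13% of all genes were, or 39.2% of the falls there. After 4 h of OVA, where 6.22% and 6.35% of all genes were called higher and lower, 486 and 388 were called again (54.7% and 66% of the untreated calls, 52.8% and 41.3% of the calls there). With Jurkat cells, 457 and 228 were at 30 min (background 5.58% and 3.67%, 51.4% and 38.8% of the untreated calls, 55.3% and 41.9% of the calls there) and 434 and 354 at 4 h (background 9.37% and 13.5%, 48.8% and 60.2% of the untreated calls, 31.3% and 17.7% of the calls there). In all 4 conditions 215 of the rises and 123 of the falls were called again, and in none of them 148 and 83. Without both untreated libraries numbered 1 fewer genes were called again: 518 and 509 with OVA and 394 and 417 with Jurkat cells, both directions together.

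Being called in untreated cells alone does not show a difference between conditions. The interaction of genotype with OVA passed for 0 genes at 30 min (795 at an unadjusted p under 0.05, edgeR) and for 6 genes at 4 h (1098 unadjusted). Those 6, named after their values were seen, were Ehd1, Mmp14, Ptges, Rasgef1b, Sdc4 and Sod2, none of them a list member. No interaction was tested against the Jurkat conditions, whose counts can hold human reads.

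Interferon-induced genes were called lower in 81 of 98 cases in untreated cells, 72 after 30 min of OVA and 90 after 4 h, where 2 and 1 were higher, with medians of -0.62, -0.60 and -0.76. With Jurkat cells 33 were lower and 6 higher at 30 min, and 64 lower and 1 higher without KO library 1 of that condition. At 4 h 74 were lower and 2 higher. Ifi44 had log2 values of -3.11 and -2.78 with OVA and -2.03 and -1.62 with Jurkat cells. Basophil or mast cell markers were called higher in 8 to 10 of 12 cases and stromal markers in 10 to 15 of 20 in every condition, with 1 stromal marker lower after 4 h of OVA. Mcpt8 lay between 1.94 and 2.43 in the 4 treated conditions, and Itgae between 0.57 and 1.08.

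Sterol genes differed in count: 17 of 22 were called higher in untreated cells, 3 and 5 with OVA at 30 min and 4 h, and 13 and 0 with Jurkat cells, where 1 was lower at 4 h. Their medians were 0.24, 0.05, 0.02, 0.20 and -0.02. Lss had values of 0.33 untreated and 0.10 and 0.13 with OVA. No member's interaction with OVA passed (edgeR adjusted p 0.808 to 0.965 at 30 min and 0.327 to 0.9996 at 4 h), so a difference between the conditions was not shown. Scd2 was called higher in all 5 conditions, at 0.45 to 0.65.

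**Figure D5:**
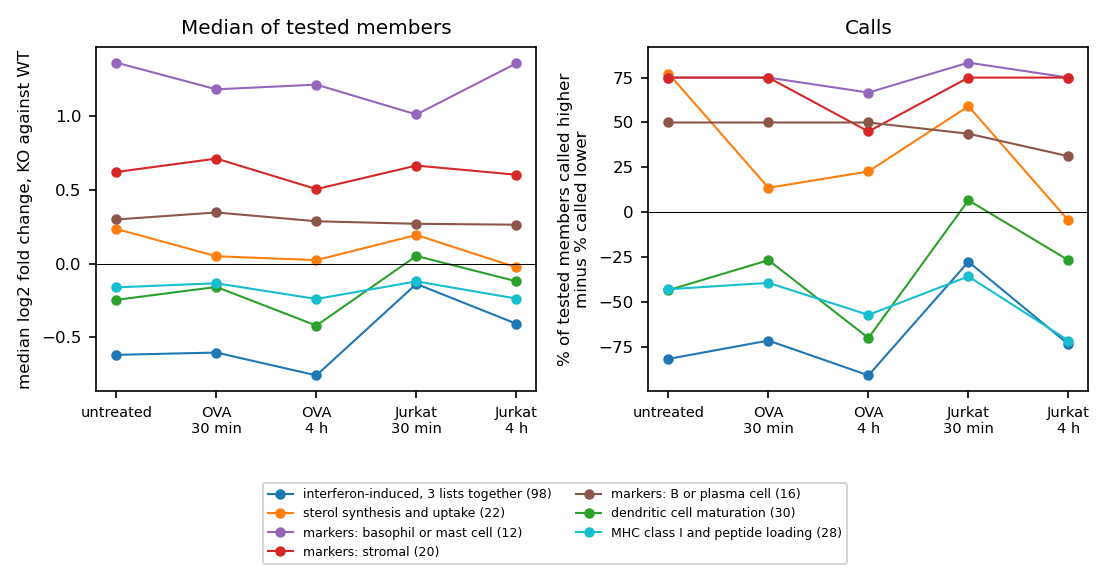
KO against WT in each condition for 7 gene groups (number tested in brackets): the median log2 fold change (left) and the percentage of members called higher minus that called lower (right). Basophil and stromal markers stay above 0 and interferon-induced and class I genes below 0 in all 5 conditions, while the sterol median falls from 0.24 in untreated cells to 0.05 and 0.02 with OVA. Lines join points for reading only.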

How the data were processed

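RNA sequencing counts were analysed for untreated KO and WT cells. The authors deposited raw counts (whole numbers) for each gene, beside its symbol, Entrez identifier and mm10 interval, per the file headers. The submitters' processing notes name STAR 2.5, Subread featureCounts 1.5.0-p1 and DESeq2. The annotation, and the use of strand and of multiply mapped reads, were not given in the sources used here, and counts of near-identical, overlapping and antisense genes are uncertain. Per the labels' protocols, RNA was extracted with Trizol and columns and libraries were made with the TruSeq kit v2, which does not mark strand.

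Groups came from the sample titles. Of 25611 gene rows, 14808 passed edgeR's filterByExpr by group and held 99.99% of counts. Genes were tested two-sided with edgeR's quasi-likelihood method (4.0.16, R 4.3.3) after TMM scaling, in 1 model of the 30 libraries with 10 group means, by the contrast of untreated KO minus WT. A gene was called at a Benjamini-Hochberg adjusted p under 0.05, over every gene tested. CPM used TMM-scaled library sizes. Standard errors were the size of the log2 value over the square root of its F. The common coefficient of variation was 0.0515. Data with 14808 genes were simulated as independent libraries, with a spread set by level alone. Changes were put only into genes at 5 CPM or more in WT. The test called 86.6% of genes changed 1.25-fold and 100% of those changed 1.5- and 2-fold, and 3 of 194 calls were unchanged genes. Spread particular to a gene and effects shared by libraries were left out, so these shares do not carry over to the real data.

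Members and lists were chosen with earlier results of these data known, so list counts are descriptions without a test. Named genes were Rubcn, the 12 largest rises and falls called without overlap at 5 CPM or more, the 8 largest at 50 CPM or more, up to 4 called members per list by smallest p and the list's most abundant member, the 4 called genes nearest Rubcn, and all sex-linked and strain genes. Other members named for a list, Scd2 and Thbs4 were chosen after their values were seen.

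Promoters and motifs came from RefSeq (GRCm38.p6): 11595 of the 14803 distinct Entrez identifiers tested matched. Alternatives were DESeq2's size factors, total counts, no filter and a stricter one, the replicate number as a block, the untreated libraries alone, DESeq2 (1.42.0) and leaving out each untreated library. After seeing the data, fits were added without both untreated libraries numbered 1, without the Jurkat libraries, without KO library 1 of 30 min Jurkat cells, and without KO library 3 of 30 min OVA, the shallowest at 9.73 M counts. A list of respiratory chain genes of mitochondrial DNA was not analysed here. Results of some genes within these rules are not reported here.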

Additional observations from a re-analysis of the deposited data

How the results depend on the processing

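The count of calls was 1524 with DESeq2's size factors, 1474 with total counts, 1393 without a filter, 1185 with at least 5 CPM in 3 libraries, 1155 with the untreated libraries alone, 1558 with DESeq2 and 1564 without the Jurkat libraries, against 1477. Without 1 untreated library it ran from 898 to 1357, and without both numbered 1 it was 646. The percentage higher in KO was 52.76 with DESeq2's size factors, 66.89 with total counts, 50.96 with DESeq2, 56.46 without the Jurkat libraries, 51.86 without both libraries numbered 1, and 55.57 to 63.08 without 1 library. The cause of these shifts was not tested.

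The replicate number as a block gave 1498 calls. In the 6 libraries alone it gave 1946, with 55.29% higher, against 1155 without the block. Over all genes the deviations of same-numbered KO and WT libraries correlated at 0.108, 0.044 and 0.03. Over the 8076 genes with a mean log2 CPM above 4 they correlated at 0.542, 0.44 and 0.334, and every library correlated best with its own number except WT library 3, at 0.341 with KO library 2. Whether every pair passes 0.1 thus depends on the genes used. The labels do not say what libraries of the same number share. The main fit has no block, so it leaves out any pairing by number. The block in the 6 libraries alone also called 2 NADPH oxidase genes lower (0 otherwise), 9 immediate early genes lower (5), 7 neutrophil markers lower (2), 5 cytokines lower (3), and 4 monocyte markers in each direction (2).

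Calls shared with other conditions, both directions together, ran without 1 untreated library from 675 to 803 (30 min OVA), 659 to 776 (4 h OVA), 500 to 648 (30 min Jurkat cells) and 534 to 697 (4 h). Without both libraries numbered 1 they were 518, 509, 394 and 417.

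Without both libraries numbered 1, 7 guanylate-binding proteins and GTPases and 6 maturation genes were called lower, and 9 sterol genes, 3 B-lineage and 5 stromal markers higher. The 5 CPM filter left 5 basophil or mast cell and 4 B-lineage calls. Without 1 untreated library, the falls were 7 to 9 in nucleic acid sensing, 8 to 9 in maturation and 3 to 6 among plasmacytoid markers. The rises were 10 to 18 among sterol genes, 5 to 8 among B-lineage and 9 to 15 among stromal markers. Without KO library 1 of 30 min Jurkat cells, there were 1531 calls, with 11 falls in sensing and 15 in maturation.

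Of 119 named genes called, 0 changed direction under any setting and 95 to 119 remained called, with the fewest without both libraries numbered 1. By level, 3.29% of genes under 1 CPM were called, 16.5% at 1 to 5 CPM, 11.5% at 5 to 50 CPM and 9.43% at 50 CPM or more. Whether depth sets these shares was not tested.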

Other observations

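Thbs4, a secreted matrix protein, had the largest rise of any called gene and lies outside the groups described. It was at 0.966, 1.43 and 0.962 CPM in KO and 0.0445, 0.0216 and 0.0204 CPM in WT, from 163 counts over the KO and 4 over the WT libraries (edgeR adjusted p 3.13e-08). Every KO library was above every WT library. The gene was chosen after its values were seen.

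In all 4 treated conditions 215 of the rises and 123 of the falls of untreated cells were called again. Apod, Ly6c2 and Mid1, from outside the interferon lists, were among these genes and are given as examples. Over all 5 conditions Apod was at -1.23 to -0.85, Ly6c2 at -1.43 to -1.25 and Mid1 at 0.98 to 2.14 on the log2 scale.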
